A study of Mus musculus with 4 samples.

Results

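The NF-kB subunits and their feedback inhibitors were followed as a set of 10 genes, of 33783 named genes in the series. The set was chosen by symbol: the isoforms of Nfkb1, Nfkb2, Rela, Relb, Rel, Nfkbia, Nfkbib, Nfkbie, Tnfaip3 and Tnip1 were taken in both liver libraries, and in the embryo libraries where the deposited values cover the gene. All 10 genes had values in both livers, and 3 of them (Rel, Tnfaip3 and Tnip1) had values in both embryo libraries. The study sequenced total RNA of mice without Adar1, an enzyme that edits double-stranded RNA by turning adenosines into inosines, and of mice without both Adar1 and Mavs. There were 4 groups of 1 library: livers of stage E15.5 labelled Adar1-/- Mavs-/-, E15.5 livers labelled Adar1-/-, E11.5 whole embryos labelled Adar1-/- Mavs-/-, and E11.5 whole embryos labelled Adar1-/-. All 4 carry the Adar1-/- genotype and no group is wild type, so each comparison within a tissue is between loss of both genes and loss of Adar1 alone. The strain label is C57B6/J for livers and C57B16/N for embryos. The labels do not say how the alleles were made or how many animals went into a library.

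NF-kB is a family of transcription factors that act as dimers of the subunits p50 (cut from the Nfkb1 product p105), p52 (cut from the Nfkb2 product p100), RelA, RelB and c-Rel. IkB proteins hold the dimers in the cytoplasm until the IkB kinase marks them for destruction, and several of the inhibitors, among them IkB-alpha and A20, are themselves NF-kB target genes, which closes a negative feedback loop. MAVS, the adaptor of the RNA sensors RIG-I and MDA5, activates NF-kB as well as the interferon regulatory factors. In the mouse fetal liver RelA is needed to protect hepatocytes from killing by tumour necrosis factor.

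Several members carry the letters of the kB consensus, the sequence that NF-kB dimers recognise, close to their start sites. RefSeq start-site windows (250 bases before to 50 after the start, GRCm38.p6) were available for 8 of the 10 members, and Nfkb1 and Relb had no entry. The kB consensus of 10 bases, searched on both strands, was present in 6 of these 8 members (Nfkb2, Rel, Nfkbia, Nfkbie, Tnfaip3 and Tnip1) and not in the windows of Rela and Nfkbib. Over all genes with a window, 1388 of 27025 held it (5.14%). The core of the interferon-stimulated response element (GAAA, any 2 bases, GAAA) was in 0 of the 8 members on either strand and in 3.99% of all genes. A match describes letters and is not evidence of binding. The 130 bases before the start are shown for 4 members, 2 that were at least 2-fold lower in the liver labelled Adar1-/- Mavs-/- (Nfkb2, Tnip1) and 2 that were not (Rel, Nfkbia), to set their matches side by side. Capitals mark every base within a kB match, and each line reads 5′ to 3′ on the strand of the gene and ends at the base before the start.
Nfkb2, chr19:46304607-46304736 (plus strand): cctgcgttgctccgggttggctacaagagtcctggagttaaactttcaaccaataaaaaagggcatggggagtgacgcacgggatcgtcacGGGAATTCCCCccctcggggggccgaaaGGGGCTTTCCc
Tnip1, chr11:54962941-54963070 (minus strand): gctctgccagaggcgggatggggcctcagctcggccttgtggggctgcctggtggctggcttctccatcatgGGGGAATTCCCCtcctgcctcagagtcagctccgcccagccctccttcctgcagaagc
Rel, chr11:23770970-23771099 (minus strand): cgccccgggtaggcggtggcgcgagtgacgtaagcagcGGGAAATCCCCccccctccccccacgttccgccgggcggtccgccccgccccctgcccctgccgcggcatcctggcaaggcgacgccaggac
Nfkbia, chr12:55492648-55492777 (minus strand): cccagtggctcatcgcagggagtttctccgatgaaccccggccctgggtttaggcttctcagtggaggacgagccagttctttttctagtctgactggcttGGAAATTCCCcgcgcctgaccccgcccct
The Tnip1 stretch holds a palindromic run matched on both strands, which begins at base -58 from the start. In the stretch shown for Nfkb2, the first of its 3 start-site windows, the matches begin at bases -39, -38 and -11. The other windows of Nfkb2 hold matches beginning at bases -236 and 10 of the one and at base -225 of the other. Those of Rel begin at -92 and -91, and that of Nfkbia at -29. Of the members not printed, Tnfaip3 has matches that begin at bases -125 and -12 and Nfkbie at base -106. A kB match therefore occurs both in members with a 2-fold difference in liver and in members without one.

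Levels are in FPKM (fragments per kilobase, relative to the fragments mapped in the library) as the authors deposited them, with the isoforms of a gene summed and the deposited bounds in brackets. The bounds cover estimation within 1 library. With no replicate there is no spread between animals and no test, and every difference below is between 2 libraries. Log2 ratios are Adar1-/- Mavs-/- over Adar1-/- with 1 FPKM added to each value, after scaling within a tissue, and understate differences of low genes. Genes that reached 1 FPKM in 1 or both libraries are counted, and a log2 ratio of 1 or more in size is called 2-fold. In whole tissue, fewer cells that express a gene and less RNA per cell cannot be told apart. Coverage per FPKM, which follows depth, was 7.13 and 8.58 in the livers labelled Adar1-/- Mavs-/- and Adar1-/-, and 5.62 and 3.48 in the embryos labelled Adar1-/- Mavs-/- and Adar1-/-. The Adar gene itself had 4.11 FPKM (3.86 to 4.36) in the liver labelled Adar1-/- Mavs-/- and 5.56 FPKM (5.28 to 5.84) in the liver labelled Adar1-/-. In the liver labelled Adar1-/- Mavs-/-, 3 of the 8 reference isoforms of Adar were above 0 and isoforms spanned the whole gene, whereas in the liver labelled Adar1-/- 0 of 8 were above 0 and a stretch of 16246 bases had no isoform across it. Mavs had 9.96 FPKM in the liver labelled Adar1-/- Mavs-/- and 7.26 FPKM in the liver labelled Adar1-/-. The liver labelled Adar1-/- Mavs-/- thus lacks the gap seen in the liver labelled Adar1-/-, and shows no loss of Mavs RNA. Which exons the alleles remove is not stated, so whether these values go against the label cannot be told. The libraries are named by their labels throughout. In embryos neither gene was analysed here.

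Most of the NF-kB members had less RNA in the liver labelled Adar1-/- Mavs-/- than in the liver labelled Adar1-/-. Of the 8 counted members, 4 (Nfkb1, Nfkb2, Relb and Tnip1) were at least 2-fold lower in the liver labelled Adar1-/- Mavs-/- and 0 were 2-fold higher. Among all 13850 counted genes 9.71% were at least 2-fold lower and 6.59% at least 2-fold higher. All 8 counted members had log2 ratios below 0, against 58% of all counted genes. The ratios of the members that were not counted were below 0 as well. The median over the 8 counted members was -0.94, against -0.12 over all counted genes. The deposited bounds of the 2 livers, after scaling, did not overlap for 7 of the 8 counted members, all but Rel, which was the case with the same direction for 42.9% of all counted genes. The members that were not counted, Nfkbie and Tnfaip3, had under 1 FPKM in both livers. The call of Nfkb1 rests on 2 isoforms with retired reference identifiers, and that of Relb on isoforms assembled from the reads, as given below, while that of Tnip1 was made under each of the 11 alternative settings tried. For Nfkb2, 59.6% of the value in the liver labelled Adar1-/- lay in assembled isoforms that reached outside the gene. The call of Nfkb2 in the summed values rests on these isoforms, as given below. Nfkb1 and Tnip1 are lower as named isoforms, whereas their signal with unnamed unspliced pieces included was close to equal in the livers, as given below. Those pieces are mostly sequence outside the spliced isoforms, so that signal is not a level of spliced RNA.

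**Figure D1:**
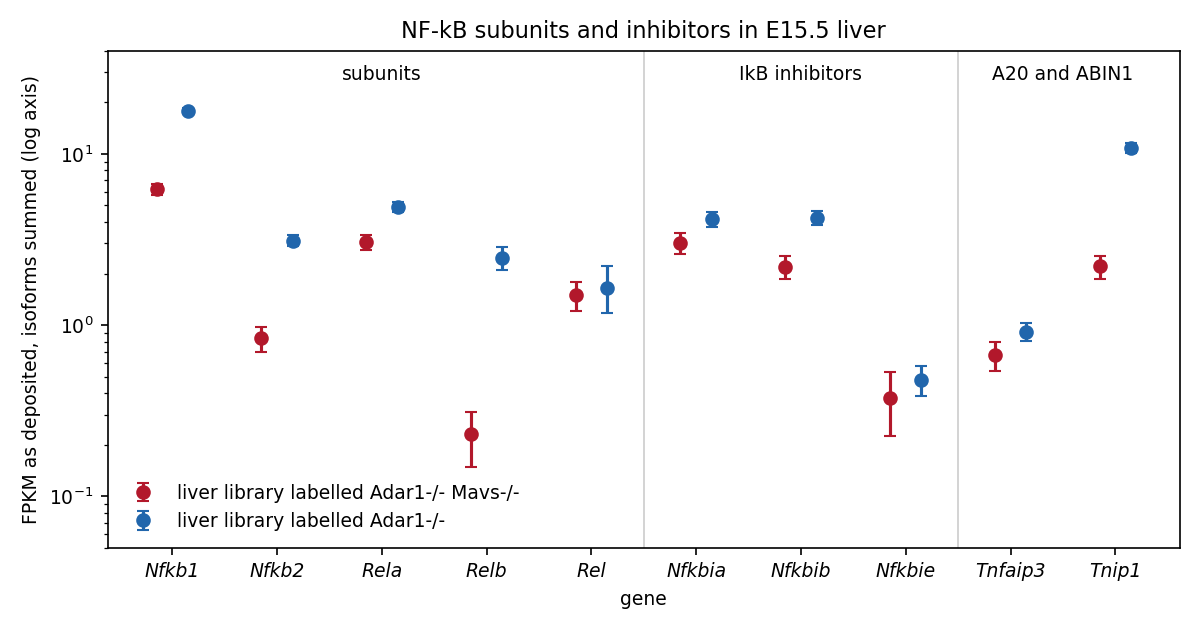
Summed FPKM of the 10 members on a log axis, with the liver labelled Adar1-/- Mavs-/- in red left of the liver labelled Adar1-/- in blue, and deposited bounds as bars. The red point lies under the blue point for each gene, with the widest gaps for Relb (0.230 and 2.47 FPKM) and Tnip1 (2.21 and 10.9 FPKM) and overlapping bars for Rel.

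**Figure D2:**
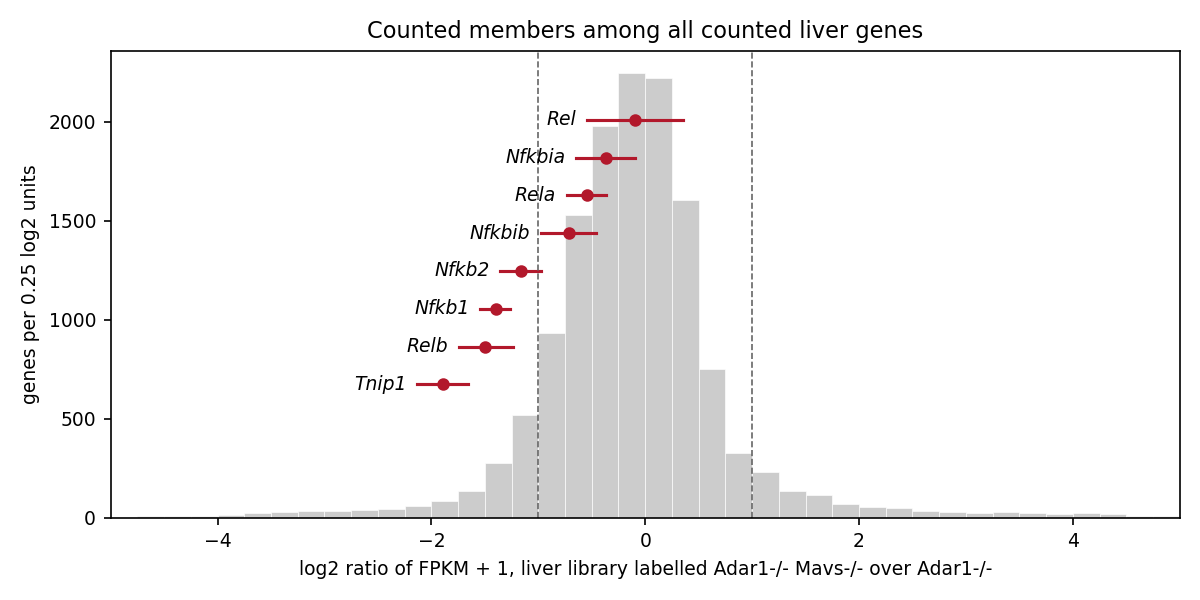
Histogram of the log2 ratios (Adar1-/- Mavs-/- over Adar1-/-) of all 13850 counted liver genes in grey, with the 8 counted members as red points, lines from their bounds, and dashed lines at 2-fold. Tnip1, Relb, Nfkb1 and Nfkb2 lie left of the 2-fold line, and Rel lies near the centre of the grey distribution.

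Among the subunits, the precursor genes and Relb were lower and Rela and Rel stayed within 2-fold. Nfkb1, whose full-length isoform Nfkb1-201 spans chr3:135247619-135354510 (mm9, the build of the deposited values, as for all positions that follow), had 6.20 FPKM (5.75 to 6.65) in the liver labelled Adar1-/- Mavs-/- and 17.9 FPKM (17.2 to 18.5) in the liver labelled Adar1-/-. By these sums it was the highest member in both livers, but without isoforms of retired identifiers it had 9.46 FPKM in the liver labelled Adar1-/- and stood under Tnip1 there. The Tnip1 sum adds isoforms over different parts of its gene, as given below. The log2 ratio of Nfkb1 was -1.40 (-1.54 to -1.26, the limits setting the opposite bounds against each other), and 4.71% of all counted genes lay lower. Nfkb2 (chr19:46379227-46386580) had 0.838 FPKM (0.699 to 0.977) in the liver labelled Adar1-/- Mavs-/- and 3.11 FPKM (2.88 to 3.34) in the liver labelled Adar1-/-, a log2 ratio of -1.16. The limits of that ratio (-1.36 to -0.98) reach across the 2-fold line.

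Relb, the subunit that pairs with p52 in the non-canonical branch, showed the widest ratio of levels. It had 0.230 FPKM (0.149 to 0.311) in the liver labelled Adar1-/- Mavs-/- and 2.47 FPKM (2.09 to 2.85) in the liver labelled Adar1-/- (Relb-201, chr7:20191566-20214787). Without a pseudocount this is 10.8-fold lower, while the log2 ratio with the pseudocount was -1.50 (-1.74 to -1.24). With a level this low in the liver labelled Adar1-/- Mavs-/-, the size of the difference depends on the pseudocount. It also depends on summing assembled isoforms over parts of the gene, as given below. Taken as FPKM times length in kilobases, Relb had 0.565 in the liver labelled Adar1-/- Mavs-/- and 2.80 in the liver labelled Adar1-/-, a narrower ratio.

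Rela, which carries the transactivation domain of the most abundant dimer, differed less. It had 3.05 FPKM (2.76 to 3.34) in the liver labelled Adar1-/- Mavs-/- and 4.90 FPKM (4.56 to 5.24) in the liver labelled Adar1-/-, a log2 ratio of -0.55 (Rela-201, chr19:5637483-5648130). Of the value in the liver labelled Adar1-/- Mavs-/-, 1.63 FPKM came from an unspliced assembled isoform of 2466 bases. Rela-201 was listed at 0 there and at 0.794 FPKM in the liver labelled Adar1-/-. The size of the Rela difference thus depends in part on the unspliced isoform. With reference isoforms alone the log2 ratio of Rela was -0.52. Rel, the c-Rel gene of lymphoid and myeloid cells, had 1.49 FPKM (1.20 to 1.79) in the liver labelled Adar1-/- Mavs-/- and 1.66 FPKM (1.17 to 2.22) in the liver labelled Adar1-/- (Rel-201, chr11:23641514-23670970). Its log2 ratio of -0.09 had limits from -0.55 to 0.36 and lay close to the median of all counted genes.

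The makeup of the subunit RNA differed between the livers with these values. Summed over the 5 subunits, there were 11.8 FPKM (11.2 to 12.4) in the liver labelled Adar1-/- Mavs-/- and 30.0 FPKM (29.0 to 31.1) in the liver labelled Adar1-/-. Nfkb1 made up 52.5% of the sum in the liver labelled Adar1-/- Mavs-/- and 59.6% in the liver labelled Adar1-/-. The share of Rela was 25.8% in the liver labelled Adar1-/- Mavs-/- and 16.3% in the liver labelled Adar1-/-, and that of Rel was 12.7% and 5.51% in the same order. The share of Relb was 1.95% in the liver labelled Adar1-/- Mavs-/- and 8.22% in the liver labelled Adar1-/-, and that of Nfkb2 was 7.10% and 10.4%. The shares of Nfkb1 and Rela rest on isoforms with retired identifiers, described below. Without these, Nfkb1 held 56.9% in the liver labelled Adar1-/- Mavs-/- and 45.8% in the liver labelled Adar1-/-, which turns the direction, and Rela held 19.6% and 19.1%, which leaves no difference. Rel then held 13.7% and 8.02%, Relb 2.11% and 11.96%, and Nfkb2 7.69% and 15.1%, with the same directions as before.

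None of the 3 genes for classical IkB proteins, which bind and retain the dimers, was 2-fold different in the summed values. Nfkbia, the gene of IkB-alpha and the most rapidly induced of the inhibitors, had 3.02 FPKM (2.59 to 3.44) in the liver labelled Adar1-/- Mavs-/- and 4.16 FPKM (3.72 to 4.60) in the liver labelled Adar1-/-, a log2 ratio of -0.37 (Nfkbia-201, chr12:56590398-56593634). Nfkbib, the gene of IkB-beta, had 2.19 FPKM (1.87 to 2.52) in the liver labelled Adar1-/- Mavs-/- and 4.23 FPKM (3.84 to 4.62) in the liver labelled Adar1-/- (Nfkbib-201, chr7:29543270-29551659). Its log2 ratio was -0.72 (-0.98 to -0.46), the largest difference of the IkB genes, and with isoforms weighted by length it passed 2-fold, at -1.23. The weighted value includes an assembled isoform that reached outside the gene, in the liver labelled Adar1-/- alone. With reference isoforms alone the log2 ratio of Nfkbib was -0.55 and that of Nfkbia -0.78. Nfkbie, the gene of IkB-epsilon, was low in both, at 0.377 FPKM (0.224 to 0.531) in the liver labelled Adar1-/- Mavs-/- and 0.479 FPKM (0.384 to 0.574) in the liver labelled Adar1-/-, and its bounds overlapped (Nfkbie-201, chr17:45692665-45700118). Summed, the IkB genes gave 5.59 FPKM (5.03 to 6.15) in the liver labelled Adar1-/- Mavs-/- and 8.87 FPKM (8.27 to 9.47) in the liver labelled Adar1-/-. Per FPKM of subunit RNA there were 0.473 FPKM of IkB RNA in the liver labelled Adar1-/- Mavs-/- and 0.295 in the liver labelled Adar1-/-, and without isoforms of retired identifiers 0.513 and 0.430. Taken as FPKM times length in kilobases, the ratio was close to equal in the livers. The Nfkbib isoform that reached outside the gene is part of that value.

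A20 and its partner ABIN1 differed from each other. Tnip1, the gene of ABIN1, a ubiquitin-binding protein that brings A20 to its substrates, had 2.21 FPKM (1.87 to 2.55) in the liver labelled Adar1-/- Mavs-/- and 10.9 FPKM (10.2 to 11.55) in the liver labelled Adar1-/- (Tnip1-203, chr11:54724289-54776419). It was 4.94-fold lower without a pseudocount, and its log2 ratio of -1.89 (-2.13 to -1.66) was the lowest of the set, with 2.61% of all counted genes lower. Tnfaip3, the gene of the ubiquitin-editing enzyme A20, had 0.667 FPKM (0.542 to 0.792) in the liver labelled Adar1-/- Mavs-/- and 0.915 FPKM (0.803 to 1.03) in the liver labelled Adar1-/- (Tnfaip3-201, chr10:18720716-18735216). The bounds of Tnfaip3 lay just apart, with a log2 ratio of -0.20 (-0.40 to -0.01), and it was under the limit for counting.

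The order of the members by level was not the same in the livers. In the liver labelled Adar1-/- Mavs-/- it ran from Nfkb1 through Rela, Nfkbia, Tnip1, Nfkbib, Rel, Nfkb2, Tnfaip3 and Nfkbie to Relb. There the bounds of Rela and Nfkbia, of Tnip1 and Nfkbib, of Nfkb2 and Tnfaip3, and of Nfkbie and Relb overlapped. In the liver labelled Adar1-/- it ran from Nfkb1 through Tnip1, Rela, Nfkbib, Nfkbia, Nfkb2, Relb, Rel and Tnfaip3 to Nfkbie, and the bounds of Rela and Nfkbib, of Nfkbib and Nfkbia, and of Relb and Rel overlapped. Tnip1 thus held rank 4 in the liver labelled Adar1-/- Mavs-/- and rank 2 in the liver labelled Adar1-/-, and Relb held ranks 10 and 7. Without isoforms of retired identifiers Tnip1 ranked 3 in the liver labelled Adar1-/- Mavs-/- and 1 in the liver labelled Adar1-/-, Rela ranked 5 in both, and Relb kept its ranks. The Tnip1 sums add a short isoform over the 5′ part of the gene and an assembled one over the 3′ part. The ranks of Tnip1 thus depend on adding the FPKM of different parts of the gene. Summed over all 10 members there were 20.3 FPKM (19.4 to 21.2) in the liver labelled Adar1-/- Mavs-/- and 50.7 FPKM (49.3 to 52.1) in the liver labelled Adar1-/-, of which Nfkb1 and Tnip1 held the larger part of the gap.

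The isoforms that carried these sums were often not the full-length reference ones. Of the 42 reference isoforms of the members with a current identifier, 9 were above 0 in the liver labelled Adar1-/- Mavs-/- and 12 in the liver labelled Adar1-/-. Isoforms assembled from the reads held 50.8% of the members' FPKM in the liver labelled Adar1-/- Mavs-/- and 29.7% in the liver labelled Adar1-/-. A further 8 reference isoforms in each library had older identifiers that GENCODE release 21 does not list, and these were counted under the gene with which Cufflinks grouped them.

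Nfkb1 shows what this can do to a value. The full-length Nfkb1-201 was listed at 0 in both livers. The shorter coding isoform Nfkb1-206 had 1.28 FPKM in the liver labelled Adar1-/- Mavs-/- and 6.65 FPKM in the liver labelled Adar1-/-. The intron-retaining Nfkb1-202, at the 3′ end of the gene, had 2.37 FPKM in the liver labelled Adar1-/- Mavs-/- and 2.81 FPKM in the liver labelled Adar1-/-, so it was close to equal while the coding isoform was not. In addition, a pair of isoforms with older identifiers held 4.88 and 3.56 FPKM in the liver labelled Adar1-/-. Both were listed at 0 in the liver labelled Adar1-/- Mavs-/-, where assembled isoforms had 1.32 and 1.23 FPKM instead. Without the isoforms of older identifiers the log2 ratio of Nfkb1 was -0.56 and no longer 2-fold, where 10.1% of all counted genes then were at least 2-fold lower, with isoforms of status OK alone it was -0.93, and with isoforms weighted by length it was -0.98.

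Relb had no reference isoform above 0 in either liver, out of 9 with a current identifier. Its values came from 2 assembled isoforms in the liver labelled Adar1-/- Mavs-/-, each spanning nearly all of the gene, and from 5 in the liver labelled Adar1-/-, each over a part of it. Weighted by length, so that a short piece counts for less, its log2 ratio was -0.66. Nfkb2-202, a coding isoform, was listed at 0 in the liver labelled Adar1-/- Mavs-/- and had 1.26 FPKM in the liver labelled Adar1-/-. The rest of Nfkb2 in the liver labelled Adar1-/- was 2 assembled isoforms that reached outside the gene. An unspliced one began before its start (1.15 FPKM), and another ran past its end (0.700 FPKM). In the liver labelled Adar1-/- Mavs-/- all 0.838 FPKM were in assembled isoforms. With reference isoforms alone the log2 ratio of Nfkb2 was -1.17, which sets 1.26 FPKM against a listed 0. Without the 2 assembled isoforms that reached outside the gene, Nfkb2 had 1.26 FPKM in the liver labelled Adar1-/-. Against 0.838 FPKM in the liver labelled Adar1-/- Mavs-/- this is within 2-fold. The 2-fold call of Nfkb2 in the summed values thus rests on those 2 isoforms, parts of which lie within the gene. For Nfkbib the coding isoform Nfkbib-202 had 2.19 FPKM in the liver labelled Adar1-/- Mavs-/- and 3.65 FPKM in the liver labelled Adar1-/-, and an assembled isoform of 7972 bases (0.587 FPKM), present in the liver labelled Adar1-/- alone, reached into the span of the neighbouring gene Sirt2.

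Tnip1 was lower in both of the pieces that made it up. Tnip1-208, a short coding isoform over the 5′ part of the gene, had 1.18 FPKM in the liver labelled Adar1-/- Mavs-/- and 6.43 FPKM in the liver labelled Adar1-/-, and an assembled isoform over the 3′ part had 1.03 and 4.42 FPKM in the same order. Nfkbia-201, the single coding reference isoform of IkB-alpha, had 1.32 FPKM in the liver labelled Adar1-/- Mavs-/- and 2.96 FPKM in the liver labelled Adar1-/-, with the rest in assembled isoforms. Tnfaip3-201, the full coding isoform of A20, had 0.146 FPKM in the liver labelled Adar1-/- Mavs-/- and 0.572 FPKM in the liver labelled Adar1-/-. These reference coding isoforms of Nfkb1, Nfkbia and Tnfaip3 thus differed by a wider ratio than the summed values of the genes, and Nfkbib-202 by a narrower one. For Nfkb1, Nfkbia and Tnfaip3 a larger share lay in assembled isoforms in the liver labelled Adar1-/- Mavs-/-. Whether those isoforms are coding is not known, so the ratios do not give the difference in coding RNA.

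**Figure D3:**
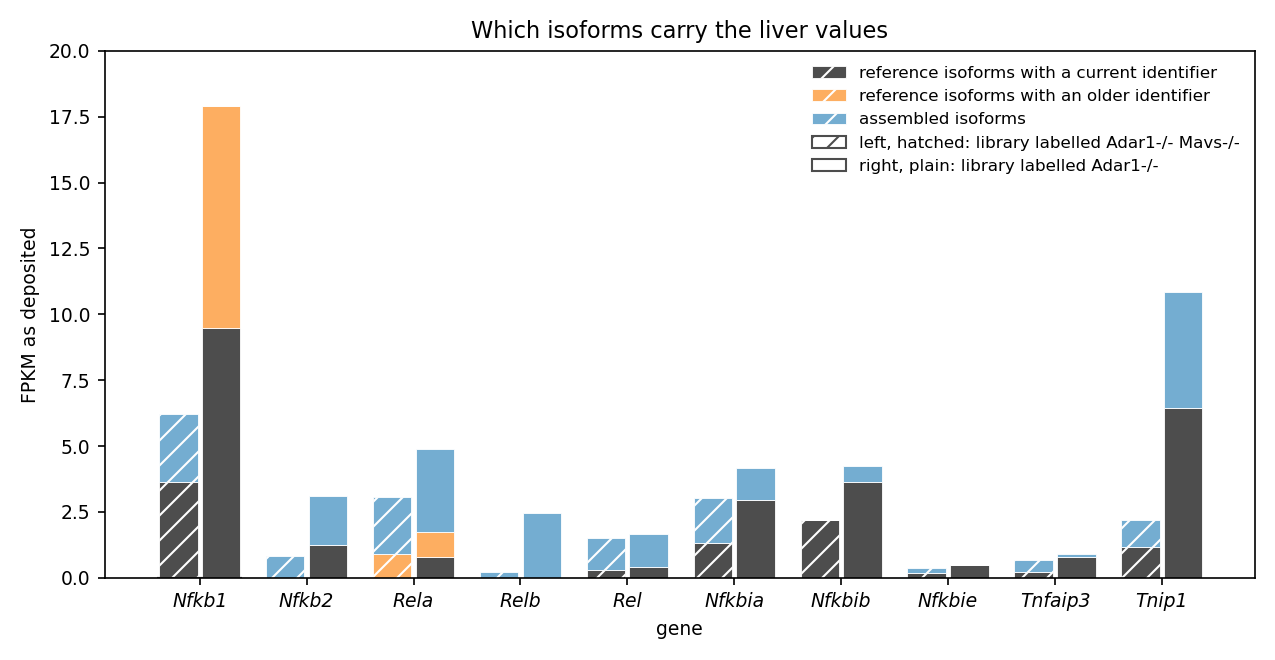
Summed FPKM of each member divided into current reference isoforms (dark), reference isoforms with older identifiers (orange) and assembled isoforms (blue), hatched for the liver labelled Adar1-/- Mavs-/- and plain, to its right, for the liver labelled Adar1-/-. Relb is all blue in both livers, and the orange part of Nfkb1 appears in the liver labelled Adar1-/- alone.

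Unspliced assembled pieces that belong to no named gene lay inside the members' spans, and in Nfkb1 and Tnip1 they were more numerous in the library with the lower gene value. Within Nfkb1 there were 58 such pieces over 44.4% of the span in the liver labelled Adar1-/- Mavs-/-, and 17 over 18.1% in the liver labelled Adar1-/-. Within Tnip1 there were 19 over 34.9% in the liver labelled Adar1-/- Mavs-/-, and 2 over 1.27% in the liver labelled Adar1-/-. Relb went the other way, with 3 in the liver labelled Adar1-/- Mavs-/- and 8 in the liver labelled Adar1-/-, and Rel had 14 and 16. The difference of 41 pieces in Nfkb1 was reached by 0.737% of 13848 counted genes and the 17 of Tnip1 by 2.997%. Over the whole library there were 177796 such pieces in the liver labelled Adar1-/- Mavs-/- and 190826 in the liver labelled Adar1-/-. Unspliced assembled isoforms that Cufflinks grouped with a member, as in Rela and Nfkb2, entered its value, whereas the unnamed pieces entered no gene value. Taken with the named isoforms as FPKM times length in kilobases, they brought the signal within Nfkb1 to 61.1 in the liver labelled Adar1-/- Mavs-/- and 59.1 in the liver labelled Adar1-/-, against 21.3 and 46.6 for the named isoforms alone. Within Tnip1 the total was 13.3 in the liver labelled Adar1-/- Mavs-/- and 14.5 in the liver labelled Adar1-/-, against 3.14 and 13.9 for the named isoforms alone. The total signal in both spans was thus close to equal in the livers, and the gap lay in the part assigned to named isoforms. For Relb the total was 1.65 in the liver labelled Adar1-/- Mavs-/- and 7.44 in the liver labelled Adar1-/-, and Nfkb2, with no unnamed piece, had 2.77 and 11.03. The last value includes the assembled isoforms of Nfkb2 that reached outside the gene. In the liver labelled Adar1-/- Mavs-/- the pieces held 47481 bases within Nfkb1 and 18195 within Tnip1. The longest reference isoforms of these genes have 4117 and 2973 bases, so the pieces are mostly sequence outside the spliced isoform. The totals thus add unlike signals and do not give the level of spliced RNA. Whether the pieces come from unspliced transcripts of these genes or from other RNA was not tested.

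**Figure D4:**
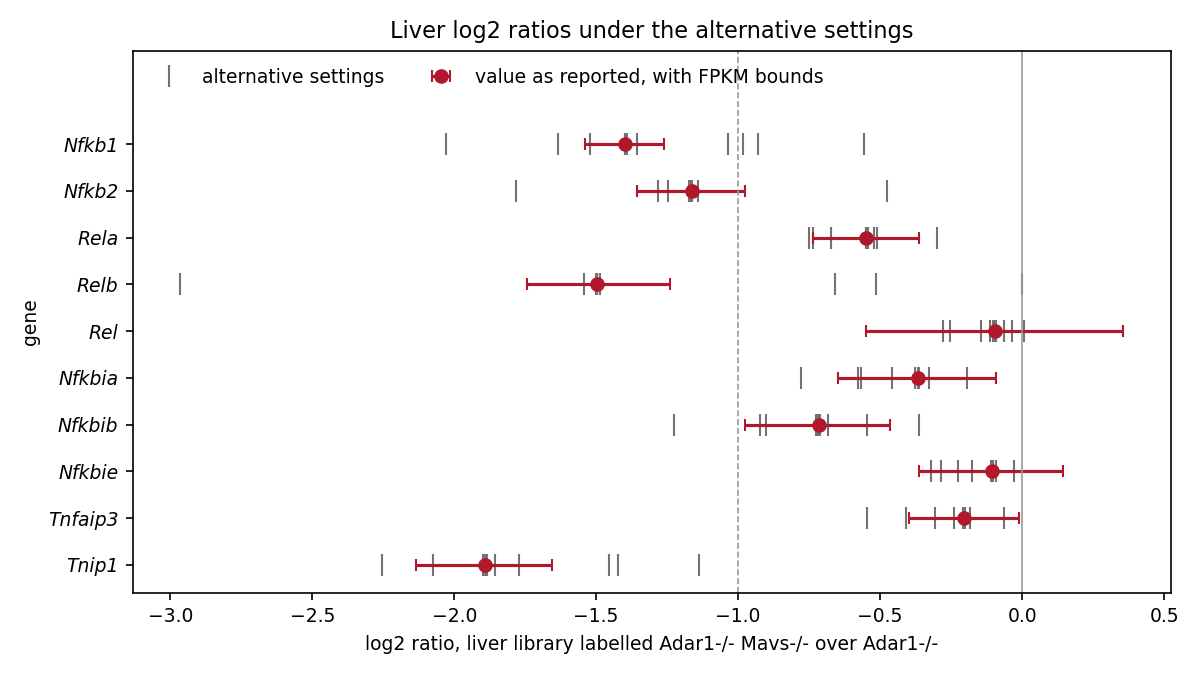
Log2 ratio of each member in liver (Adar1-/- Mavs-/- over Adar1-/-): red points with limits are the values given in the text and grey ticks the 11 alternative settings, with a dashed line at 2-fold. All ticks of Tnip1 lie left of the dashed line, while those of Nfkb1 reach -0.56 and those of Relb reach 0, the value when reference isoforms alone are summed and Relb is listed at 0 in both.

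The marker genes of several cell types also differed between the livers. Of 9 counted skeletal muscle markers 9 were at least 2-fold lower in the liver labelled Adar1-/- Mavs-/-, with summed levels of 9.90 FPKM in the liver labelled Adar1-/- Mavs-/- and 150.4 FPKM in the liver labelled Adar1-/-. All 9 endothelial markers were below 0, 1 of them 2-fold, with sums of 67.6 FPKM in the liver labelled Adar1-/- Mavs-/- and 101.9 FPKM in the liver labelled Adar1-/-. Macrophage markers ran the other way, 3 of 14 being 2-fold higher and 1 lower, with sums of 223.7 FPKM in the liver labelled Adar1-/- Mavs-/- and 185.8 FPKM in the liver labelled Adar1-/-, where Cd68 was listed at 0. The 10 hepatocyte markers, which check the tissue label, had no 2-fold difference and sums of 15027 and 14069 FPKM in the same order. Granulocyte markers had a median log2 ratio of -0.42, with 1 of 10 lower (Prtn3, listed at 0 in the liver labelled Adar1-/- Mavs-/-), and sums of 903.5 and 813.4 FPKM. Lymphoid markers had a median of 0.44, with 2 of 6 counted higher, and sums of 17.5 and 12.9 FPKM, and erythroid markers had a median of 0.23, with 1 of 7 higher. Of 19 counted interferon-stimulated genes 5 were lower and 1 higher, with a median of -0.59. The part of any of these in the NF-kB values was not tested.

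Upstream of the subunits, most genes were within 2-fold. Of 27 receptors and adaptors 18 were counted, 2 were at least 2-fold lower in the liver labelled Adar1-/- Mavs-/- and 0 higher, and the median log2 ratio was -0.30. With isoforms of status OK alone 1 was lower and 2 higher, and with reference isoforms alone 4 were lower and 2 higher. Ltbr, the lymphotoxin beta receptor that feeds the non-canonical branch, had 4.39 FPKM in the liver labelled Adar1-/- Mavs-/- and 10.7 FPKM in the liver labelled Adar1-/- (log2 ratio -1.12). Irak1, a kinase below Toll-like and interleukin-1 receptors, had 4.79 FPKM in the liver labelled Adar1-/- Mavs-/- and 12.8 FPKM in the liver labelled Adar1-/-, but the bounds of that last value ran from 4.89 to 344 and the ratio of -1.26 turns to 2.53 with isoforms of status OK alone. The receptor of tumour necrosis factor Tnfrsf1a and the adaptor kinase Ripk1, chosen here for their place in the pathway after their values were seen, had log2 ratios of -0.29 and -0.30.

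Of 20 kinases and ubiquitin ligases 19 were counted, with 2 lower, 0 higher and a median of -0.02. The lower ones were Btrc, the ligase subunit that marks phosphorylated IkB for destruction, with 2.42 FPKM in the liver labelled Adar1-/- Mavs-/- and 9.74 FPKM in the liver labelled Adar1-/- (-1.66), and Rnf31, the catalytic subunit of the linear ubiquitin ligase, with 0.754 and 3.82 FPKM (-1.46). The call of Rnf31 was lost without isoforms of retired identifiers (-0.29) and with isoforms of status OK alone (-0.28). The IkB kinase complex, named after its values were seen, had no 2-fold difference: the log2 ratio was 0.72 for Ikbkb, -0.02 for Chuk and 0.24 for Ikbkg. Of 19 other inhibitors 16 were counted, 2 were lower and 0 higher, with a median of -0.12. Bcl3, a nuclear IkB protein that binds p50 and p52 dimers, had 0.974 FPKM in the liver labelled Adar1-/- Mavs-/- and 2.95 FPKM in the liver labelled Adar1-/- (-1.003). It lies at the 2-fold line and was just short of it without scaling (-0.9996), with the upper quartile factor (-0.98) and with isoforms weighted by length (-0.87), and its reference isoforms alone gave 0.

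Other target genes were mixed. Of 43 listed, 23 were counted, 5 were lower and 2 higher, with a median log2 ratio of -0.35. Icam1, an adhesion molecule, had 1.39 FPKM in the liver labelled Adar1-/- Mavs-/- and 6.06 FPKM in the liver labelled Adar1-/- (-1.57), and the chemokine Cxcl1 had 0.441 and 2.13 FPKM (-1.12). The antioxidant enzyme Sod2 had 9.997 FPKM in the liver labelled Adar1-/- Mavs-/- and 22.3 FPKM in the liver labelled Adar1-/- (-1.09), and the hyaluronan receptor Cd44 had 16.8 and 36.2 FPKM (-1.07). With reference isoforms alone the log2 ratio of Cxcl1 was 0.52 and that of Sod2 -0.04, and Cd44 was at 0, and weighted by length Sod2 was at -0.20 and Cd44 at -0.68. The cytokine Il1a had 4.28 FPKM and the immunoproteasome subunit Psmb9 had 2.19 FPKM in the liver labelled Adar1-/- Mavs-/-, and both were listed at 0 in the liver labelled Adar1-/-. Psmb9 was no longer 2-fold higher with isoforms of status OK alone (0.40) or weighted by length (0.64).

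In whole embryos, 1 of the 3 members with values in both libraries was counted and 0 passed 2-fold in either direction, beside 9.75% (lower) and 6.52% (higher) of all 1917 counted genes. Tnip1 had 3.43 FPKM (2.88 to 3.98) in the embryo labelled Adar1-/- Mavs-/- and 2.51 FPKM (2.08 to 2.94) in the embryo labelled Adar1-/-. After scaling by 1.34 its log2 ratio was 0.67 (0.30 to 1.04), so it was higher in the embryo labelled Adar1-/- Mavs-/- and lower in the liver labelled Adar1-/- Mavs-/-. Under scaling by the summed FPKM of named genes, whose factor lies lower on the log2 scale by 0.94 in embryo and by 0.28 in liver (log2 ratios move by less, since 1 FPKM is added), the embryo value of Tnip1 was -0.05, and it was -0.17 with isoforms of status OK alone. Its liver value was below -1 under both.

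Tnip1 was also built from different isoforms in the embryos. In the embryo labelled Adar1-/- Mavs-/- the short Tnip1-208 had 1.80 FPKM and the full-length coding Tnip1-205 had 0.796 FPKM, whereas in the embryo labelled Adar1-/- Tnip1-208 was listed at 0 and Tnip1-205 had 1.65 FPKM. Tnip1-205 taken alone was thus lower in the embryo labelled Adar1-/- Mavs-/-. In both livers it was listed at 0.

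The other members were near the floor in embryos. Tnfaip3 had 0.380 FPKM (0.284 to 0.476) in the embryo labelled Adar1-/- Mavs-/- and 0.704 FPKM (0.536 to 0.871) in the embryo labelled Adar1-/-, a log2 ratio of -0.18 with limits from -0.44 to 0.09. Rel had 0.124 FPKM (0.068 to 0.179) in the embryo labelled Adar1-/- Mavs-/- and 0.210 FPKM (0.118 to 0.301) in the embryo labelled Adar1-/-, a log2 ratio of -0.05 with limits from -0.25 to 0.15. In both embryos Tnip1 was above Tnfaip3 and Tnfaip3 above Rel, with bounds apart, whereas in both livers Rel was above Tnfaip3. Tissue, age and strain label change together between these pairs and cannot be told apart.

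**Figure D5:**
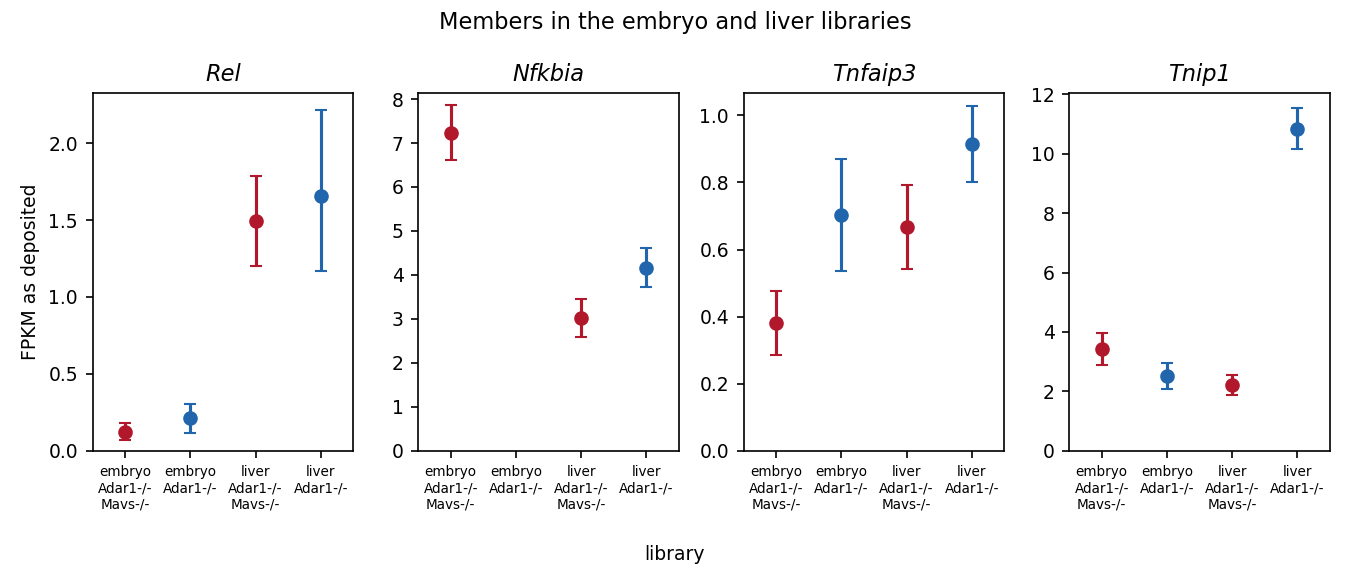
FPKM as deposited, with bounds, of Rel, Nfkbia, Tnfaip3 and Tnip1 in the embryos and livers, each with Adar1-/- Mavs-/- (red) left of Adar1-/- (blue). Nfkbia has no point for the embryo labelled Adar1-/-, where it was not analysed. Rel is higher in both livers than in both embryos, and the liver labelled Adar1-/- stands above the other 3 libraries for Tnip1.

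Few other genes of the pathway lie in the stretch that both embryo libraries cover. Of the kinases and ubiquitin ligases 5 were counted, with 0 passing 2-fold in either direction and a median log2 ratio of -0.62. Of these, Tab2, an adaptor of the kinase TAK1, had 3.25 FPKM in the embryo labelled Adar1-/- Mavs-/- and 9.22 FPKM in the embryo labelled Adar1-/- (-0.93). Of the other target genes 3 were counted and 2 were 2-fold lower. Irf1, a transcription factor that both NF-kB and interferon gamma induce, had 1.72 FPKM in the embryo labelled Adar1-/- Mavs-/- and 23.4 FPKM in the embryo labelled Adar1-/- (-2.89), and the log2 ratio of the chemokine Ccl2 was -1.06. Beside these, 7 of 8 counted interferon-stimulated genes were 2-fold lower, with sums of 5.50 FPKM in the embryo labelled Adar1-/- Mavs-/- and 268.3 FPKM in the embryo labelled Adar1-/-.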

How the data were processed

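Total RNA was sequenced in 4 mouse libraries, 1 per group. The deposited values are FPKM per isoform, with a lower and an upper bound, a status and a coverage signal that is a fixed multiple of FPKM within a library, per the file headers and the values themselves. TopHat 1.4.0, Cufflinks 2.2.1 and the mm9 build appear in the submitters' processing notes, which give them no roles. No source used here gives strandedness, read totals or assembly options, so overlapping genes may not be separated.

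Isoform identifiers were matched to symbols of GENCODE release 21. Isoforms without a match (assembled ones and older identifiers) were counted under the symbol they overlapped best within their Cufflinks gene. FPKM were summed per symbol and the bounds' distances combined as the root of summed squares. Without a symbol were 39.9% and 42.0% of the length-weighted FPKM in the livers labelled Adar1-/- Mavs-/- and Adar1-/-. In the embryos labelled Adar1-/- Mavs-/- and Adar1-/- these shares were 63.9% and 42.2%, which differ more. Values of each library labelled Adar1-/- Mavs-/- were multiplied by a factor that centres the log2 ratios of genes reaching 5 FPKM in both libraries on a median of 0 (0.995 in liver, from 6893 genes, and 1.34 in embryo, from 973). The embryo values shared by both libraries cover chromosomes 10, 11 and 12 to 11.7 Mb. The scaling and counting were tested on simulated data. No test of significance was made, since each group is 1 library, and the number of libraries limits the precision.

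All 10 members are named, and of each of 4 further pathway lists up to 4 genes per direction past 2-fold with at least 2 FPKM in either liver. Members and lists were chosen with earlier results of these data known. Promoter windows are from RefSeq (GRCm38.p6), and no coordinate was moved between builds. Alternatives changed the pseudocount, the scaling, the filter, the status and the isoforms summed, and 2 of the 11 were added after seeing the data. Python 3.11.15, pandas 2.3.3, numpy 2.4.6 and matplotlib 3.10.9 were used.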

Additional observations from a re-analysis of the deposited data

Results flagged for a closer look

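Tnip1 had opposite directions in the tissues under the main setting, with a log2 ratio of -1.89 in liver and 0.67 in embryo (Adar1-/- Mavs-/- over Adar1-/-). The embryo direction depended on the setting. It was -0.05 under scaling by the summed FPKM of named genes, -0.17 with status OK alone and 0.15 with isoforms weighted by length. The difference between the tissues was not tested, since each group is 1 library.

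Nfkbia lies on a part of chromosome 12 that the values of the embryo labelled Adar1-/- do not reach. In the embryo labelled Adar1-/- Mavs-/- it had 7.24 FPKM (6.61 to 7.86), the highest of the 4 members with values there, of which 6.11 FPKM were in the coding isoform Nfkbia-201.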

How the results depend on the processing

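No paired analysis was possible because each group is 1 library and no test was made. All 10 members stayed below 0 in liver under 9 of the 11 alternatives. With reference isoforms alone Relb was listed at 0 in both livers, and with isoforms weighted by length Rel was at 0.01. The count of 4 members at least 2-fold lower was 2 with a pseudocount of 5 and 2 among members of at least 5 FPKM, and 3 with reference isoforms alone, with status OK alone, without older identifiers and with isoforms weighted by length (where Nfkbib joined and Nfkb1 and Relb did not pass). The shares of all counted genes at least 2-fold lower were 3.03%, 9.21%, 17.0%, 14.1%, 10.1% and 9.12% in the order of these settings. Counted members were 2 at 5 FPKM, 6 with reference isoforms alone, 7 weighted by length and 8 under the others. The length-weighted value of Nfkbib includes an assembled isoform that reached outside the gene. With a pseudocount of 0.1 the count stayed at 4, and the share was 15.2%. The median of -0.94 was -1.22 with a pseudocount of 0.1, -0.42 with a pseudocount of 5, -0.63 with no filter and -1.64 at 5 FPKM. Embryo counts stayed at 0, and at 5 FPKM no embryo member was left. Tnip1 ranged from -2.25 to -1.14 in liver and from -0.17 to 0.84 in embryo, Nfkb1 from -2.03 to -0.56, Relb from -2.97 to 0.00 and Nfkb2 from -1.78 to -0.48. Named pathway genes changed direction in 2 cases: Cxcl1 (0.52 with reference isoforms alone) and Irak1 (2.53 with status OK alone). The pathway lists' counts of 2-fold lower genes ranged from 0 to 4 for receptors and adaptors, 0 to 3 for kinases and ubiquitin ligases, 0 to 3 for other inhibitors and 0 to 6 for other targets. Counts of 2-fold higher genes ranged from 0 to 2, 0 to 1, 0 to 1 and 0 to 3 for the same lists. The lower counts were 0 for all 4 lists with a pseudocount of 5. Scaling by the summed FPKM of named genes moved the shares of all counted genes that were 2-fold lower and higher to 14.6% and 5.1% in liver and 38.4% and 2.97% in embryo, and without scaling the embryo shares were 16.6% and 4.33%. Nfkbie and Tnfaip3, and Rel in embryos, had levels under 1 FPKM, where the pseudocount of 1 limits the size of any log2 ratio.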
